A study of Rattus norvegicus with 24 samples.

Results

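The genes described here carry out the making and the breakdown of ceramide, the lipid at the centre of sphingolipid metabolism. The 10 genes are Sptlc1, Sptlc2, Degs1, Cers1, Cers2, Cers5, Cers6, Acer2, Acer3 and Asah1. They were chosen by gene symbol with earlier results of these data known, and the values that drew attention to the family were those of Acer2 in the comparison of Sed with CC-Sed. For that reason the effect of cardiac cachexia on Acer2 is given as a description, with its error and no p-value, and Acer2 is left out of the counts of ceramide genes that passed a test of CC. Of the 10 symbols, 8 had a row among the 10851 genes of the count table. Cers1 and Cers6 had no row and were not analysed here.

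Gene expression was measured by RNA sequencing of the left medial gastrocnemius of 24 male Wistar rats, with 1 library per animal and 6 animals in each of 4 groups. Sed rats received saline and stayed sedentary, and Ex rats received saline and trained on a treadmill. CC-Sed rats received monocrotaline and stayed sedentary, and CC-Ex rats received monocrotaline and trained. Monocrotaline is a plant alkaloid that injures the lung vessels and overloads the right heart, and cardiac cachexia (CC) is the loss of body and muscle mass that follows heart failure. The age of the rats is not given in the sources used here. RNA came from a piece of whole muscle, in which fewer cells of a type and less RNA per cell cannot be told apart.

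Total counts ranged from 37816239 to 50350554 per rat. All 5 muscle fibre markers listed were in the table, with summed levels between 60268 and 120933 CPM (counts relative to the TMM-scaled library total) over the 24 rats. The slow-fibre score averages the log2 CPM of 5 slow-fibre markers, those in the table of 8 listed. It ran from 4.85 to 9.35 in Sed, 4.71 to 10.85 in Ex, 5.32 to 11.02 in CC-Sed and 2.72 to 10.59 in CC-Ex. The groups overlapped, but the score reached higher in CC-Sed than in Sed.

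Ceramide is made anew in the endoplasmic reticulum. Serine palmitoyltransferase, whose core is formed by the products of Sptlc1 and Sptlc2, joins serine to an activated fatty acid. Ceramide synthases then attach a further fatty acid, each enzyme preferring its own range of chain lengths, and the desaturase encoded by Degs1 completes the molecule. Ceramidases cut ceramide into sphingosine and a fatty acid, and the enzymes differ in the compartment and the pH at which they work. In skeletal muscle, ceramide is known for its interference with insulin signalling.

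Acer2, which encodes the alkaline ceramidase of the Golgi, was the member with the widest separation between saline and CC rats. Its level in Sed was 2.81 CPM in the lowest rat, 3.20 CPM at the median and 5.16 CPM in the highest. In Ex the lowest, median and highest values were 2.51, 3.61 and 4.52 CPM. In CC-Sed they were 6.95, 17.9 and 19.2 CPM, and in CC-Ex 8.78, 14.7 and 23.7 CPM. Every CC rat was thus above every saline rat, since the 12 saline rats ended at 5.16 CPM and the 12 CC rats began at 6.95 CPM. The values rested on 99 to 264 counts per saline rat and 249 to 1052 counts per CC rat. Of all 10851 genes, 15 (0.138%) showed no overlap between the 12 CC and the 12 saline rats, 11 of them higher and 4 lower in CC. Acer2 was 1 of the 11, and no other ceramide gene was among the 15.

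**Figure D1:**
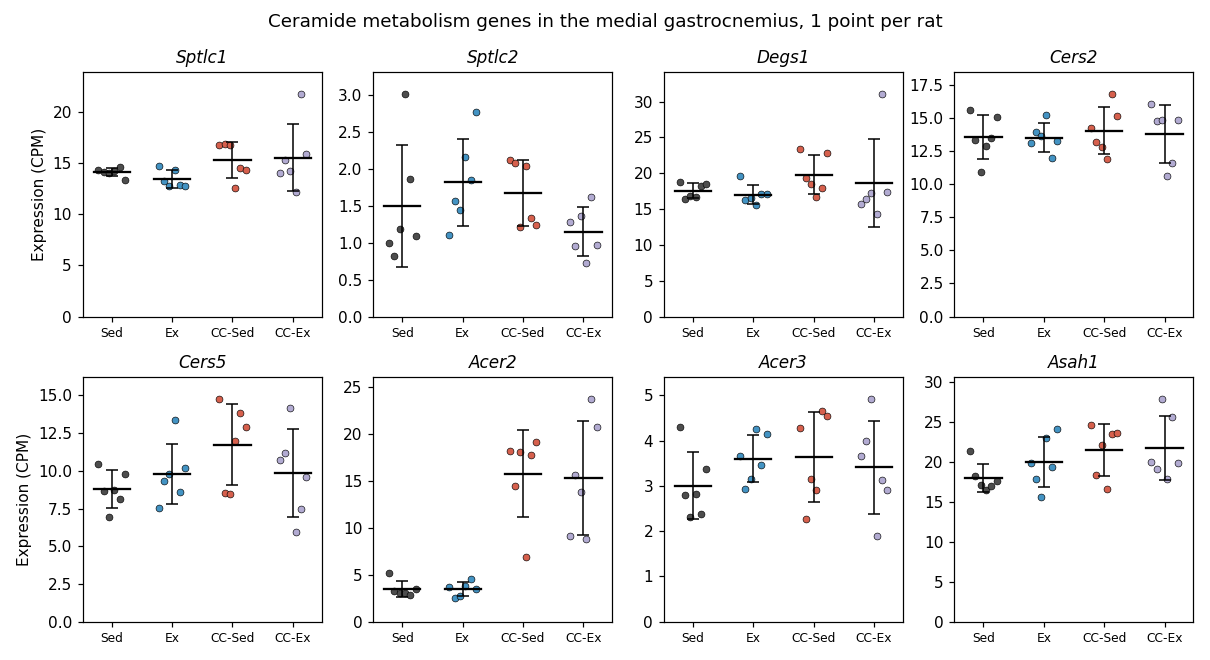
Expression of the 8 ceramide genes in CPM (vertical axes, starting at 0) by group. Each point is 1 rat, the bar is the mean and the whisker 1 SD (n = 6). In the Acer2 panel the saline rats lie at 2.51 to 5.16 CPM and the CC rats at 6.95 to 23.7 CPM, whereas the groups overlap in the other 7 panels.

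As a Log2FC from the edgeR model, Acer2 was higher by 2.17 (SE 0.26) in CC-Sed than in Sed and by 2.13 (SE 0.26) in CC-Ex than in Ex. The average of both CC effects was 2.15 (SE 0.18), a fold of 4.45 with a 95% interval from 3.43 to 5.79. Leaving out each rat in turn moved this average between 2.05 and 2.23. Among the CC rats the difference between trained and sedentary animals was −0.045 (95% interval −0.55 to 0.46), and among saline rats it was −0.0058 (−0.53 to 0.52). The interval of the interaction, the CC effect in trained minus that in sedentary rats, ran from −0.77 to 0.69.

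The order of the Acer2 medians was CC-Sed, CC-Ex, Ex and Sed. Neighbours within the CC pair and within the saline pair overlapped over most of their range.

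Expression of Acer2 was also set against the other ceramidases within each rat, as a ratio of counts that does not depend on library scaling. The ratio of Acer2 to Asah1 had medians of 0.184 in Sed and 0.172 in Ex, and of 0.771 in CC-Sed and 0.655 in CC-Ex. For Acer2 to Acer3 the medians were 1.18 in Sed and 0.893 in Ex, and 4.25 in CC-Sed and 4.27 in CC-Ex. By contrast, the median ratio of Acer3 to Asah1 lay between 0.161 and 0.181 in all 4 groups. These are comparisons of 1 ratio between groups and not of levels between genes, since counts also depend on transcript length.

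Some cell type markers differed in level between CC and saline rats in the same average CC effect, at an adjusted p-value under 0.05. Of all genes, 17.2% were higher and 10.6% lower in CC at that threshold. Endothelial markers were higher for 2 of 5 (Vwf and Kdr), with summed levels of 147 to 234 CPM in saline and 164 to 276 CPM in CC rats. Fibroblast markers were lower for 3 of 5 (Col1a1, Col1a2 and Col3a1), with sums of 389 to 4862 CPM in saline and 150 to 1542 CPM in CC rats. Smooth muscle markers were lower for 2 of 3 (Acta2 and Tagln), at 70.2 to 270 CPM against 31.4 to 187 CPM. The adipocyte marker Adipoq was lower, 1 of the 2 in the table, with sums of 78.5 to 180 CPM against 61.3 to 175 CPM. Erythroid markers were higher for 2 of 3 (Hba-a1 and Hbb), at 49.9 to 210 CPM against 33.8 to 960 CPM. No marker of muscle fibres, fast fibres, slow fibres, macrophages or Schwann cells passed the test. The lowest count of any gene in any rat was 10, so that no marker in the table was at 0. The part of these cells in the values of Acer2 and of the other genes was not tested.

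Because Acer2 stood apart from Acer3, the bases upstream of both genes are shown. They were taken from the RefSeq promoter table (build GRCr8), which is a later assembly than mRatBN7.2, on which the counts were made. Each stretch ends where the annotated gene begins and reads 5′ to 3′ on the strand of the gene. Acer2 is at chr5:106437598-106437772 on the plus strand and Acer3 at chr1:162017803-162018048 on the minus strand. Capitals mark the GC box, GGGCGG on either strand.
Acer2: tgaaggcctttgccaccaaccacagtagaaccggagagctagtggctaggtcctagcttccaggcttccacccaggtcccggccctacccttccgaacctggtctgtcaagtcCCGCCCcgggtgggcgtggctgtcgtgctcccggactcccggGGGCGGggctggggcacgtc
Acer3: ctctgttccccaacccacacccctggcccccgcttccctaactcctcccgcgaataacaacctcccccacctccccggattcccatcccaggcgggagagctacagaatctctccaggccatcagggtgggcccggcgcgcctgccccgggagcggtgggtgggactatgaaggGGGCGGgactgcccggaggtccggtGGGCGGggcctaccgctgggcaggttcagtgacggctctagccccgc

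The motif search covered 250 bases per promoter. Of these, the printed stretch holds 175 for Acer2 and 246 for Acer3, and the rest lies inside the annotated gene. In the 250 bases Acer2 and Acer3 each held 3 GC boxes, of which 2 fall in the printed stretch of either gene. Every ceramide gene except Asah1 had a promoter in the table, 9 in all. A GC box was present in 8 of these 9, the exception being Cers6, and in 30.5% of all 33469 promoters. The other motifs searched, on both strands, were GTAAACA (FoxO, in 3.21% of all promoters), AGAACA (glucocorticoid receptor half-site, 17.5%), CACGTG (E-box, 5.59%), AGGTCA (nuclear receptor half-site, 14.1%), CCAAT (34%) and TATAAA (12.9%), none of which contains another. None of these 6 was present in the 250 bases searched for Acer2. FoxO, half-site AGAACA and TATAAA matches were also missing from the other 8 ceramide genes. The motifs were chosen after the expression values were seen, and a match of letters is no evidence of binding. The shares are over all promoters, with those of genes that have no row in the count table. A motif absent from the 250 bases may lie elsewhere.

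The genes of the first step of synthesis were expressed in every rat. Sptlc1, a core subunit of serine palmitoyltransferase, had group medians of 14.2 CPM in Sed and 13.0 in Ex, against 15.7 in CC-Sed and 14.7 in CC-Ex. It ranged from 12.8 to 14.7 CPM in saline rats and from 12.1 to 21.8 CPM in CC rats, so that the CC rats reached beyond the saline rats at both ends. The average CC effect on Sptlc1 was a Log2FC of 0.16 (95% interval 0.0062 to 0.32), which did not pass the test (edgeR adjusted p = 0.104). With limma-voom and quality weights the adjusted p was 0.0342, and without CC-Ex replicate 4 it was 0.0416. Without CC-Ex replicate 5 the effect was 0.083 (edgeR adjusted p = 0.269).

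Sptlc2, which encodes the catalytic partner, was counted with the fewest reads of the family, 30 to 130 per rat. Its medians were 1.14 CPM in Sed and 1.71 in Ex, against 1.69 in CC-Sed and 1.13 in CC-Ex, and single rats spread from 0.720 to 3.01 CPM. Highest of all was 1 Sed rat, at 3.01 CPM. The Log2FC of CC was 0.17 in sedentary rats (95% interval −0.43 to 0.76) and −0.66 in trained rats (−1.26 to −0.056), and neither passed the test (edgeR adjusted p = 0.726 and 0.187). The effect in sedentary rats was 0.043 without Sed replicate 2 and 0.49 without Sed replicate 4. The test of the difference between both effects gave an interaction of −0.82 with an interval from −1.67 to 0.023, which did not pass either. Without Sed replicate 4 the interaction was −1.15, and without Ex replicate 6 it was −0.65.

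Degs1, the dihydroceramide desaturase, had medians of 17.5, 16.8, 18.9 and 16.8 CPM in the order Sed, Ex, CC-Sed and CC-Ex. Saline rats lay between 15.6 and 19.6 CPM and CC rats between 14.3 and 31.0 CPM. The highest value belonged to CC-Ex replicate 5, and the other 5 CC-Ex rats ended at 17.3 CPM. The average CC effect was 0.15 (95% interval −0.053 to 0.36, edgeR adjusted p = 0.246), and it was 0.028 without that rat.

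Of the ceramide synthases, Cers2, which prefers very long acyl chains, was the steadiest gene of the family over the 24 rats, with a coefficient of variation of 11.7%. Its medians were 13.4 CPM in Sed and 13.5 in Ex, against 13.7 in CC-Sed and 14.8 in CC-Ex, with all rats between 10.6 and 16.8 CPM. The average CC effect was 0.040, with a 95% interval from −0.12 to 0.20, or folds of 0.920 to 1.15 (edgeR adjusted p = 0.717). Under upper-quartile scaling the sign turned, to −0.034, and the effect was 0.011 without CC-Sed replicate 5 and 0.072 without CC-Ex replicate 4.

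Cers5, which prefers palmitic acid, spread more widely. Its lowest, median and highest levels were 6.94, 8.71 and 10.5 CPM in Sed and 7.57, 9.57 and 13.4 CPM in Ex. In CC-Sed they were 8.47, 12.4 and 14.7 CPM, and in CC-Ex 5.95, 10.2 and 14.2 CPM. The 4 groups overlapped, with CC-Sed at the top of the order of medians and Sed at the bottom. The Log2FC was 0.42 from Sed to CC-Sed (95% interval 0.034 to 0.80, edgeR adjusted p = 0.146) and 0.0053 from Ex to CC-Ex (−0.38 to 0.39, adjusted p = 0.989). The interaction of −0.41 (−0.95 to 0.13) did not pass the test. Cers5 followed the slow-fibre score (r = 0.86 over the 24 rats, as described below). These effects are not adjusted for that score, which reached higher in CC-Sed than in Sed.

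The other ceramidases moved less than Acer2. Acer3, an alkaline ceramidase with a preference for unsaturated long-chain ceramides, had medians of 2.82 CPM in Sed and 3.56 in Ex, against 3.71 in CC-Sed and 3.38 in CC-Ex, with all rats between 1.90 and 4.91 CPM. Its average CC effect was 0.10 (95% interval −0.20 to 0.40, edgeR adjusted p = 0.624), and it was 0.033 without CC-Ex replicate 3 and 0.17 without Sed replicate 1. As a fold, the interval of Acer3 ran from 0.868 to 1.32. The difference between Acer3 and Acer2 was not tested.

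Asah1, the acid ceramidase of the lysosome, had medians of 17.4 CPM in Sed and 19.6 in Ex, against 22.9 in CC-Sed and 19.9 in CC-Ex. Saline rats lay between 15.7 and 24.1 CPM and CC rats between 16.7 and 27.9 CPM, with overlap over most of that range. The average CC effect was 0.19 (95% interval 0.0049 to 0.37) and did not pass the test (edgeR adjusted p = 0.109). With limma-voom and quality weights the adjusted p was 0.0471.

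**Figure D2:**
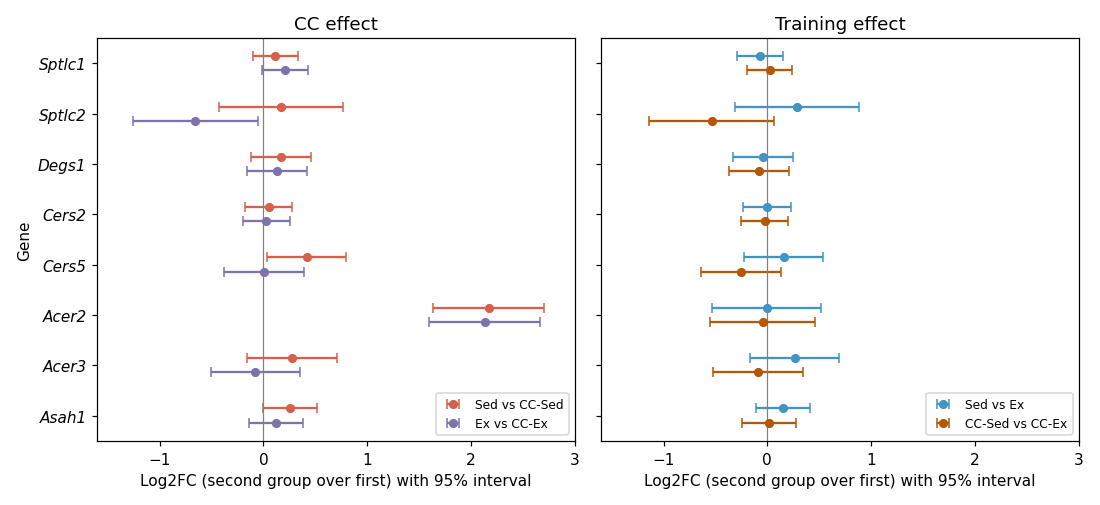
Log2FC of the 8 ceramide genes (points) with 95% intervals (whiskers), on the left for CC in sedentary and in trained rats and on the right for training in saline and in CC rats. Acer2 lies at 2.17 and 2.13 on the left, and every training effect on the right has an interval that includes 0.

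Of the 7 ceramide genes other than Acer2, 0 had an edgeR adjusted p under 0.05 from Sed to CC-Sed, where 6.46% of all genes passed, and 0 from Ex to CC-Ex, where 0.995% passed. In the average CC effect it was again 0 of 7, against 27.8% of all genes, of which 17.2% were higher and 10.6% lower in CC. DESeq2 also called 0 of the 7 in these contrasts. By contrast, limma-voom with quality weights called Sptlc1 (adjusted p = 0.0342) and Asah1 (adjusted p = 0.0471) in the average CC effect. At an unadjusted p under 0.05 there was 1 of 7 from Sed to CC-Sed (Cers5), beside 28.4% of all genes, and 1 of 7 from Ex to CC-Ex (Sptlc2), beside 22.6%. There were 2 of 7 in the average CC effect (Sptlc1 and Asah1), beside 42.4% of all genes, so that none of these counts stood above the share over all genes. The median Log2FC of the 7 genes was 0.17 from Sed to CC-Sed and 0.029 from Ex to CC-Ex, beside 0.021 and 0.013 over all genes.

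None of the 8 genes passed the test of training in CC rats (CC-Sed vs CC-Ex) or in saline rats (Sed vs Ex), or the test of the interaction. In these 3 contrasts 0% of all genes passed with edgeR, and DESeq2 also called 0 genes in each. At an unadjusted p under 0.05 there were 0 ceramide genes in all 3, and 234 (2.16%), 118 (1.09%) and 154 (1.42%) genes of the whole table in that order. The training effect with the longest distance from 0 among the members was that of Sptlc2 in CC rats, at −0.54 (95% interval −1.14 to 0.064).

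Over the 24 rats, 5 of the 28 pairs had a Pearson correlation of log2 CPM above 0.7, and 4 pairs were below 0. Without CC-Ex replicate 5 these counts were 4 and 2. These correlations are descriptions, as all points share the same libraries and TMM scaling. Cers2, Cers5 and Acer3 formed 3 of the 5 pairs among themselves, with r of 0.75 for Cers2 and Cers5, 0.81 for Cers5 and Acer3 and 0.71 for Cers2 and Acer3. The fourth pair was Acer3 with Asah1, at 0.71. Sptlc1 and Degs1, which act early and late in synthesis, had an r of 0.78, which was 0.55 without CC-Ex replicate 5. Acer2 correlated most with Sptlc1, at 0.61, and with Asah1, at 0.59.

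The same trio of Cers2, Cers5 and Acer3 followed the slow-fibre score of the muscle piece. Over 24 rats the correlation with the score was 0.86 for Cers5, 0.69 for Cers2 and 0.69 for Acer3. After group means were removed it was 0.86, 0.70 and 0.67. Acer2 showed no such relation, with r of 0.084 over all rats and −0.015 within groups, and with the score as a covariate its average CC effect was 2.16. For Sptlc1 and Degs1 the correlation was −0.32 and −0.28, for Sptlc2 0.23 and for Asah1 0.21. Since only 5 of 8 slow-fibre markers were in the table, the score stands for those 5 genes.

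**Figure D3:**
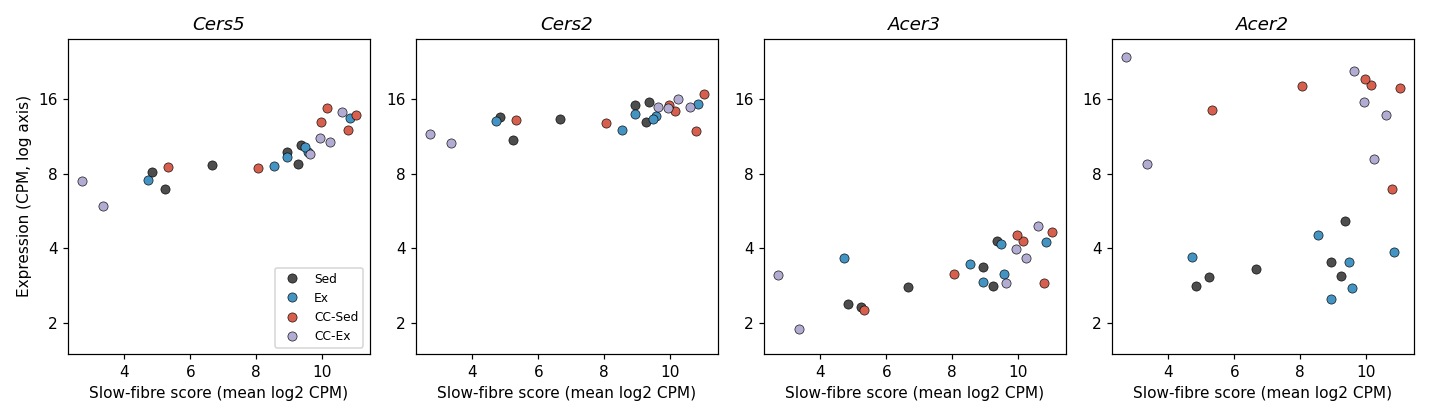
Expression of Cers5, Cers2, Acer3 and Acer2 (vertical axes, CPM on a log scale) against the slow-fibre score (horizontal axes, mean log2 CPM of 5 markers). Each point is 1 of the 24 rats, coloured by group. Cers5 climbs with the score (r = 0.86), whereas Acer2 splits into saline and CC rats at all scores (r = 0.084).

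The gene whose profile over the 24 rats was most like that of Acer2 was Fmr1, which encodes an RNA-binding protein, with r = 0.96. Art5, an ADP-ribosyltransferase, and Tmem252 came next, at 0.95 and 0.94. A correlation does not measure the size of a change. From Sed to CC-Sed the Log2FC was 0.43 for Fmr1, 1.53 for Art5 and 1.83 for Tmem252, beside 2.17 for Acer2. From Ex to CC-Ex it was 0.37, 1.52 and 1.49, beside 2.13 for Acer2. With group means removed, r was 0.72 for Fmr1, 0.90 for Art5 and 0.83 for Tmem252, so that Art5 and Acer2 also varied together between rats of the same group. The nearest gene was Crnkl1, a splicing factor, for Sptlc1 (r = 0.91), Stox2 for Sptlc2 (0.75) and Lrrc59, a protein of the endoplasmic reticulum, for Degs1 (0.94). Hsd17b11, a dehydrogenase of lipid droplets, was nearest to both Cers2 (0.79) and Acer3 (0.87). Pkd2, a cation channel, was nearest to Cers5 (0.94), and Mertk, a receptor by which macrophages take up dying cells, to Asah1 (0.91).

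Ceramide is the branch point for sphingomyelin, glycosphingolipids and sphingosine 1-phosphate, and 57 further genes of these routes were listed. Of these, 43 were in the table. In the average CC effect 11 of the 43 changed (25.6%), close to the 27.8% of all genes, with 4 higher and 7 lower. Their median Log2FC was −0.066, beside 0.014 over all genes. From Sed to CC-Sed 0 of the 43 passed with edgeR. There 12 had an unadjusted p under 0.05, near the 28.4% of all genes, and DESeq2 called 5, near its 12.3% of all genes. From Ex to CC-Ex 1 passed, Sptssa.

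**Figure D4:**
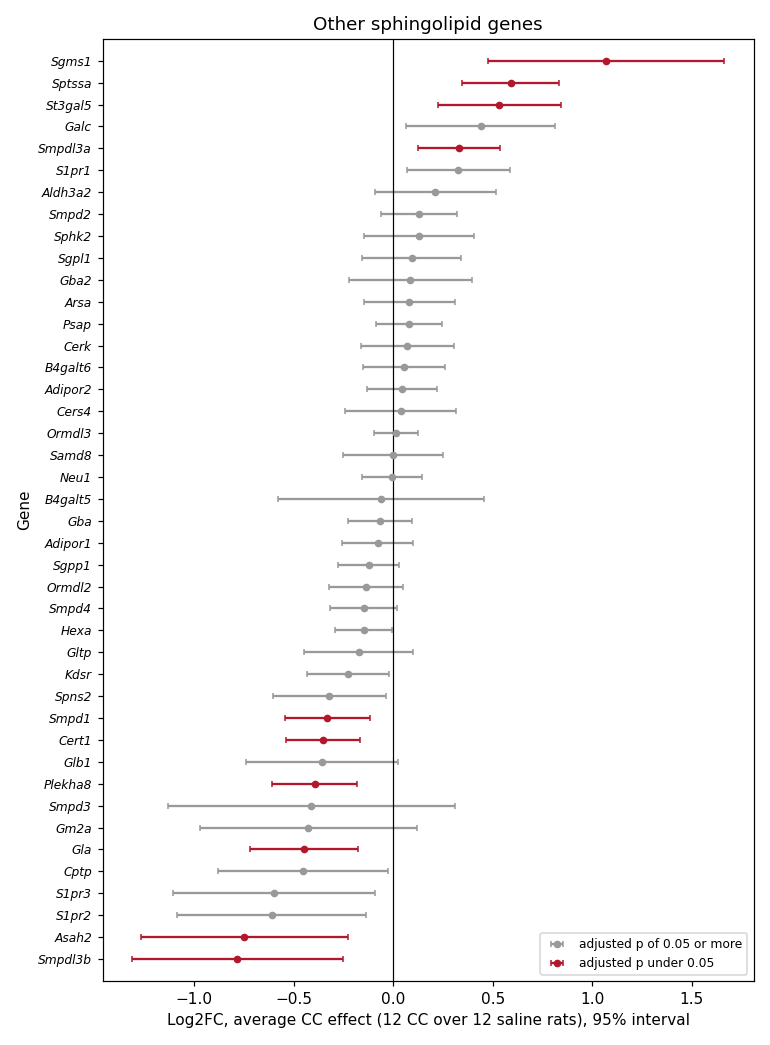
Average CC effect (Log2FC, 12 CC against 12 saline rats, points) with 95% intervals (whiskers) for 42 of the 43 other sphingolipid genes, in order of effect. Red marks genes with an adjusted p under 0.05, from Smpdl3b at −0.78 to Sgms1 at 1.07.

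Among the synthesis genes, 1 of 5 changed in the average CC effect, beside 27.8% of all genes. Sptssa, a small subunit that activates serine palmitoyltransferase, ranged from 12.9 to 18.2 CPM with a median of 14.9 CPM in saline rats. In CC rats it ranged from 17.5 to 41.7 CPM with a median of 21.1 CPM. The groups touched only at their ends, and the average CC effect was 0.59 (SE 0.12, edgeR adjusted p = 0.00191). Its call from Ex to CC-Ex was close to the threshold (Log2FC 0.68, edgeR adjusted p = 0.0479). When each of the 12 rats of that contrast was removed in turn, 0 of the 43 genes passed in 10 fits, all except those without CC-Ex replicate 1 or 4.

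In the sphingomyelin branch, 4 of 8 genes changed in the average CC effect, 2 in each direction, beside 27.8% of all genes. With 8 genes this count was not tested against that share. Sgms1, the sphingomyelin synthase of the Golgi, ranged from 14.8 to 25.6 CPM in saline rats and from 18.7 to 145 CPM in CC rats, with medians of 16.8 and 26.5 CPM. The value of 145 CPM was that of 1 CC-Ex rat, replicate 5. The average CC effect was 1.07 (SE 0.29, edgeR adjusted p = 0.0105), and without that rat it was 0.58 (adjusted p = 0.00683). Smpdl3a, a sphingomyelinase-like phosphodiesterase, rose by 0.33 (adjusted p = 0.0198), a call that was lost with upper-quartile scaling (adjusted p = 0.0743). Smpd1, the acid sphingomyelinase of the lysosome, fell by 0.33 (adjusted p = 0.0232), from a median of 67.8 to 49.2 CPM. Smpdl3b, a membrane-bound relative, fell by 0.78 (adjusted p = 0.0273). Its ranges overlapped, at 9.22 to 24.5 CPM in saline and 4.51 to 31.6 CPM in CC rats, and the highest CC rat was above every saline rat. With the library number as a covariate the adjusted p was 0.0512 for Smpd1 and 0.11 for Smpdl3b. This number opens the library name, and the labels do not say what it stands for. It ran from 1 to 21 in CC rats and from 7 to 24 in saline rats, with the lowest in CC-Ex. It was thus partly tied to CC, and a call lost in this fit cannot be assigned to either. The call of Smpdl3b was also lost without CC-Sed replicate 1 (adjusted p = 0.0501) and without CC-Sed replicate 6 (adjusted p = 0.0517).

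Of the genes that carry or modify ceramide, 2 of 5 changed in the average CC effect, beside 27.8% of all genes. Both were lower in CC, beside 10.6% of all genes called lower. With 5 genes this count was not tested against these shares. Cert1, which moves ceramide from the endoplasmic reticulum to the Golgi, fell by 0.35 (SE 0.090, edgeR adjusted p = 0.00793). It lay at 68.2 to 102 CPM in saline and 50.8 to 89.8 CPM in CC rats, with medians of 85.7 and 66.4 CPM. Plekha8, a glucosylceramide carrier, fell by 0.40 (adjusted p = 0.00887), from a median of 9.51 to 7.46 CPM.

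In the glycosphingolipid group, 3 of 14 genes changed in the average CC effect, beside 27.8% of all genes. St3gal5, which makes the ganglioside GM3, rose by 0.53 (edgeR adjusted p = 0.0136), with medians of 17.6 CPM in saline and 25.4 CPM in CC rats. Gla, a lysosomal galactosidase, fell by 0.45 (adjusted p = 0.0164). Its ranges overlapped, at 2.38 to 3.60 CPM in saline and 1.03 to 2.99 CPM in CC rats.

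None of the 8 genes of sphingosine and sphingosine 1-phosphate passed the test. An unadjusted p under 0.05 was found for 4 of the 8, beside 42.4% of all genes. Asah2, the neutral ceramidase, was named after its values were seen because it shares the reaction of Acer2. It was the 1 gene called of 3 in its group, ceramidases and adiponectin receptors, beside 27.8% of all genes. It fell by 0.75 in the average CC effect (SE 0.25, edgeR adjusted p = 0.0312), from a median of 14.2 CPM in saline to 8.77 CPM in CC rats. Saline rats lay between 8.26 and 18.6 CPM and CC rats between 1.62 and 16.8 CPM, so that the ranges overlapped. This call was lost with the library number, which is partly tied to CC, as a covariate (adjusted p = 0.0529). It was also lost without Sed replicate 2 (adjusted p = 0.0551), CC-Sed replicate 1 (0.0575) or CC-Sed replicate 6 (0.0503).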

How the data were processed

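The authors trimmed the reads with Trim Galore, ran Salmon against the transcripts of the rat build mRatBN7.2 and deposited estimated counts per gene as whole numbers, not scaled for library size. No value was below 10. Groups and replicate numbers came from the labels. The analysis used edgeR 4.0.16 in R 4.3.3 (TMM, filterByExpr, which removed no gene, and the quasi-likelihood F test in 1 model of the 4 groups), with Benjamini-Hochberg adjustment over 10851 genes and a threshold of 0.05. CPM used TMM library sizes, and log2 CPM a prior count of 2. Intervals are at 95%. The model was tested on simulated data. DESeq2 1.42.0 and limma 3.58.1 were alternatives.

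The members and lists were chosen with earlier results of these data known. The text names all 10 ceramide genes, at most 10 other sphingolipid genes that passed the test in any contrast, taken by the smallest p-value of the average CC effect, the 3 genes with the highest correlation to Acer2 and the 1 for each other member. Asah2 was named outside this rule, after its values were seen. Each rat is a separate animal. Promoters came from RefSeq (GRCr8). For 1 of the other sphingolipid genes, which is included in the counts, values are not reported here.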

Additional observations from a re-analysis of the deposited data

Results flagged for a closer look

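In 3 of the 32 gene-and-group sets of 6 rats, 1 rat lay apart from the other 5 by Dixon's criterion, which chance meets in about 1 in 20 sets. Degs1 was at 31.0 CPM in CC-Ex replicate 5, with the others at 14.3 to 17.3 CPM. Acer2 was at 5.16 CPM in Sed replicate 1, with the others at 2.81 to 3.51 CPM, and still below every CC rat. Asah1 was at 21.4 CPM in the same Sed rat, with the others at 16.6 to 18.3 CPM.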

How the results depend on the processing

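Acer2 was higher in CC rats under every alternative, its average Log2FC lying between 2.05 without CC-Ex replicate 5 and 2.25 with the library number as a covariate. With Acer2 counted, which was known to differ when the genes were chosen, the ceramide genes called in the average CC effect were 3 with limma-voom and quality weights (the others being Sptlc1 and Asah1) and 1 to 2 without single rats (2, with Sptlc1, without CC-Ex replicate 4). Of the other sphingolipid genes, the 0 called from Sed to CC-Sed became 5 with DESeq2 and 5 with only the rats of the contrast, 9 with limma-voom, 3 with the slow-fibre score and 1 each with upper-quartile scaling, a minimum of 50 counts, the library number and the replicate block, and 0 to 8 without single rats (2 without CC-Sed replicate 2, 8 without CC-Sed replicate 4). The 1 called from Ex to CC-Ex became 2 with DESeq2, 4 with limma-voom and 0 with upper-quartile scaling, only the rats of the contrast, the replicate block, the library number, the slow-fibre score or a Log2FC of at least 1, and 0 to 4 without single rats (4 without CC-Ex replicate 4). The 11 of the average CC effect became 1 with a Log2FC of at least 1 (Sgms1). Over all genes, 701 calls from Sed to CC-Sed became 1331 with DESeq2, 2474 with limma-voom, 1430 with the slow-fibre score and 173 to 1726 without single rats. The 108 from Ex to CC-Ex became 685 with DESeq2, 1043 with limma-voom, 42 with the library number, 23 with upper-quartile scaling, 1 with only the rats of the contrast, 1 with the replicate block and 2 to 847 without single rats. Of the average CC calls, 61.8% were higher in CC with TMM, 59.2% with DESeq2 and 45.2% with upper-quartile scaling, which shifted the median Log2FC of all genes from 0.014 to −0.063. The cause of these differences was not tested.

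The main model did not treat replicate numbers as pairs, as the study's methods name no pairing. After group means were removed, correlations of same-numbered Sed and CC-Sed rats ran from −0.50 to 0.36. Over all pairs of groups compared, they ran from −0.59 to 0.37. Rats of different numbers were not compared, so these values cannot decide whether animals were paired. The replicate block changed no call of a ceramide gene. Small Log2FC values turned sign, and none of them was called. With limma-voom these were Sptlc1 (−0.076), Cers2 (0.036), Acer3 (0.030) and Asah1 (−0.031) in CC-Sed vs CC-Ex, Degs1 (−0.024) and Acer3 (0.11) in Ex vs CC-Ex, and Cers2 in Sed vs Ex (0.015) and in the interaction (0.021). With the slow-fibre score they were Sptlc1 (−0.023), Cers2 (0.036) and Acer3 (0.039) in CC-Sed vs CC-Ex, Degs1 (9.53e-05) in Sed vs Ex, and Cers2 in Sed vs CC-Sed (−0.039) and in the interaction (0.10). With upper-quartile scaling they were Cers2 (−0.033 in sedentary rats, −0.034 in trained rats, −0.034 in the average CC effect, 0.0028 in CC-Sed vs CC-Ex and 0.0041 in Sed vs Ex), Cers5 in Ex vs CC-Ex (−0.053) and Acer2 in Sed vs Ex (0.00099). With a minimum of 50 counts they were Cers2 (0.0047) and Acer2 (0.0011) in Sed vs Ex and Cers5 (−0.015) in Ex vs CC-Ex, and Sptlc2 and Gla were then not tested. With the replicate block it was Cers2 in Sed vs Ex (0.0069), and with the library number Acer2 in CC-Sed vs CC-Ex (0.019) and in the interaction (0.035).

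Without single rats the Log2FC of Acer2 ranged from −0.20 to 0.073 in CC-Sed vs CC-Ex, −0.095 to 0.14 in Sed vs Ex and −0.19 to 0.078 in the interaction. That of Cers2 ranged from −0.073 to 0.040 in CC-Sed vs CC-Ex, −0.019 to 0.094 in Ex vs CC-Ex, −0.0076 to 0.095 in Sed vs CC-Sed, −0.058 to 0.041 in Sed vs Ex and −0.070 to 0.043 in the interaction. Acer3 ranged from −0.22 to 0.032 in CC-Sed vs CC-Ex and −0.21 to 0.046 in Ex vs CC-Ex, Asah1 from −0.067 to 0.066 in CC-Sed vs CC-Ex and Cers5 from −0.13 to 0.11 in Ex vs CC-Ex. Degs1 ranged from −0.085 to 0.20 in Ex vs CC-Ex and −0.23 to 0.027 in the interaction, and Sptlc1 from −0.084 to 0.083 in CC-Sed vs CC-Ex and −0.012 to 0.15 in the interaction. A prior count of 0.5 moved the correlation of Acer2 and Fmr1 by less than the printed digits, and no filter gave the same values as the main model. The low counts of Sptlc2, Acer3 and Gla limit the precision of their values.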
